A study of Mus musculus with 6 samples.

Results

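A set of 9 genes that mark dendritic cells was followed in double-positive thymocytes of Ets1-/- and wild-type mice: Irf8, Batf3, Zbtb46, Xcr1, Clec9a, Flt3, Cd209a, Siglech and Spib. They were chosen by name, and a gene was measured where an array probe set was annotated to it and to no other gene. This held for 8 of the 9 genes, among 22180 genes measured in this way, through 10 probe sets. Clec9a had no such probe set and was not analysed here. Irf8 and Cd209a had 2 probe sets each, and the brighter over all 6 arrays stood for the gene.

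The study set 3 Ets1-/- arrays, labelled DP_Ets1_KO, against 3 wild-type arrays, labelled DP_WT, all with total RNA from primary thymocytes of C57BL/6 mice aged 5 to 6 weeks. Ets1 belongs to the ETS transcription factors of lymphocytes. The labels name no Cre or other tissue restriction for the Ets1-/- genotype. Whether blood cells and thymic stroma of these mice carry it was not tested. Both groups were crosslinked with formaldehyde and then enriched with magnetic beads, first through CD8 and then through CD4. Litter mates served as biological replicates. The number of animals behind each array is not stated, and the p-values measure the spread between these samples.

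Dendritic cells take up antigen and present it to T cells, and in the thymus they take part in deleting self-reactive thymocytes. Conventional dendritic cells of the cross-presenting type, cDC1, depend on the transcription factors Irf8 and Batf3 and carry the surface receptors Xcr1 and Clec9a. Zbtb46 marks the conventional lineage, and Cd209a is typical of the other conventional type, cDC2. Plasmacytoid dendritic cells, known for type I interferon production, carry Siglech and use Spib, and Flt3 is the growth factor receptor of the whole lineage. In mice some dendritic cells carry CD8 or CD4 on their surface. Irf8 is also made by B cells and macrophages and Spib by B cells, so neither gene names a cell type alone.

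All values are the authors' log2 signals, and a difference is the Ets1-/- mean minus the wild-type mean. Over all probe sets the median was 4.13. Array medians were 3.66, 4.31 and 4.19 in Ets1-/- and 4.21, 4.25 and 4.33 in wild type, so replicate 1 of Ets1-/- was shifted downwards. The median difference over all genes was -0.22, and only 27.0% of genes had a difference above 0. Ets1 itself had 9.09 ± 0.27 in Ets1-/- and 9.20 ± 0.11 in wild type (SD, n = 3 each). Where its probe set lies relative to the deletion is not given, so the genotype labels are not checked by it. The markers of the labelled cell type were bright in both genotypes: Cd4, Cd8a, Cd8b1 and the recombinase subunit Rag2 had means of 11.08, 10.91, 11.66 and 9.48 in Ets1-/-, and 10.94, 11.00, 11.69 and 9.77 in wild type.

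Irf8 was the 1 member that rose. The plasmacytoid genes Spib and Siglech had positive differences of 3.33 and 0.81 without passing the test. All 4 measured conventional genes had differences below 0, also without passing it, where only 27.0% of all genes were above 0. With each array set against its own median, Batf3, Zbtb46, Xcr1 and Cd209a had -0.04, -0.17, -0.94 and 0.02. Spib and Siglech had 3.54 and 1.03 on that scale. Wider lists of cDC1, cDC2 and plasmacytoid genes had median differences of 0.83, 0.70 and 1.05 without centring. Of the 8 measured members, 1 was called higher (limma adjusted p under 0.05 over all genes), where 1.29% of all genes were called higher. None was called lower, where 0.568% of all genes were; at an unadjusted p under 0.05, 3 members were higher (Irf8, Spib and Siglech), where 4.54% of all genes were, and 1 lower (Xcr1), where 8.62% were. The 3 Ets1-/- values lay above all wild-type values for 2 of 8 members, Irf8 and Spib, where the background was 5.76% of all genes. For 0 of 8 members they lay below all wild-type values, where the background was 16.1%.

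**Figure D1:**
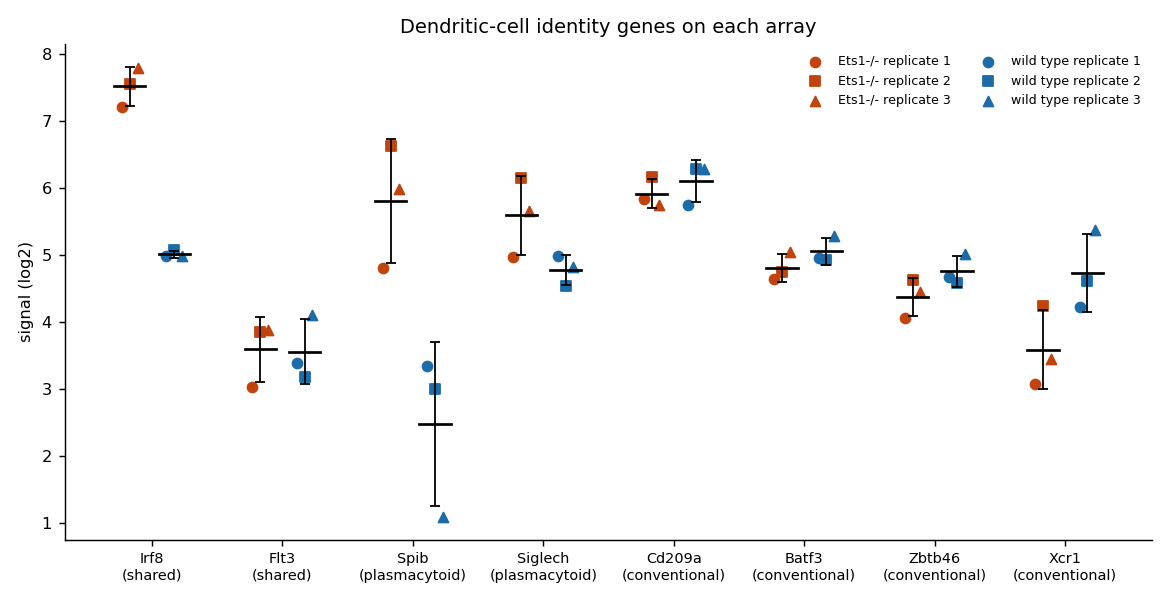
Log2 signal of the 8 measured genes on each array, with Ets1-/- in orange left of wild type in blue, symbols for replicates, and bars for the mean and SD (n = 3). Irf8 and Spib show no overlap between genotypes, Siglech overlaps through replicate 1 of Ets1-/-, and the 4 conventional genes and Flt3 overlap.

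The transcription factor Irf8, which is required for cDC1 and also active in plasmacytoid cells, had 7.21, 7.55 and 7.80 in Ets1-/- replicates 1 to 3, against 4.98, 5.07 and 4.98 in wild type. Each Ets1-/- array was above each wild-type array, and the wild-type arrays were close together. The difference was 2.51 ± 0.24 (SE; 95% interval 1.96 to 3.06), 5.70-fold on the linear scale, with a limma adjusted p of 0.00232. The call held under all 18 alternative settings, with adjusted p of 2.37e-06 to 0.0176. Of these, the filter at the 75th percentile of all probe sets (5.73) was passed by Irf8 only through its Ets1-/- values. Without filters on dim genes the tally was 16 of 16. The dimmer probe set of Irf8 had 5.63, 6.50 and 6.34 in Ets1-/-, against 3.45, 4.53 and 2.62 in wild type. Its groups did not overlap either, and its difference of 2.62 ± 0.53 (SE) was close in size, though its adjusted p over all 41345 probe sets was 0.128.

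The transcription factor Spib is itself an ETS-family protein and takes part in plasmacytoid and B-cell development. Its signal was 4.80, 6.63 and 5.98 in Ets1-/- replicates 1 to 3, against 3.34, 3.0 and 1.08 in wild type. The groups did not overlap, although wild-type replicate 3 was far below the others of its group and all wild-type values were under the median of all probe sets. The difference was 3.33 ± 0.67 (SE; 95% interval 1.79 to 4.88), which missed the threshold over all genes with an adjusted p of 0.0578. Without wild-type replicate 3 the difference was 2.64, with an adjusted p of 0.0892. Whichever array was left out, Spib was not called, with limma adjusted p of 0.0571 to 0.174. Spib was called in 8 of 17 alternative settings. One of the 8 is the filter on genes above the median of all probe sets, which Spib passes only through its Ets1-/- values. Another, a pseudocount of 16 together with median centring, was chosen after seeing the data. Without filters on dim genes the tally was 7 of 16, the setting chosen after seeing the data included. Among the 7 were median centring of the arrays (3.54, adjusted p = 0.0228) and a pseudocount of 16 on the linear scale (1.71, adjusted p = 0.0247). The pseudocount thus lowered its log2 difference from 3.33 to 1.71.

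The factors of the conventional lineage lay close together in both genotypes. Batf3, a basic leucine zipper protein that maintains Irf8 expression in cDC1, had 4.64, 4.74 and 5.04 in Ets1-/-, against 4.95, 4.93 and 5.29 in wild type. Its ranges overlapped, and the difference was -0.25 ± 0.23 (SE; 95% interval -0.79 to 0.30; adjusted p = 0.666). Zbtb46, a zinc-finger factor of conventional dendritic cells and their committed precursors, had 4.06, 4.62 and 4.44 in Ets1-/-, against 4.67, 4.58 and 5.01 in wild type. Replicate 2 of Ets1-/- was above replicate 2 of wild type, and the difference was -0.38 ± 0.25 (SE; 95% interval -0.97 to 0.21; adjusted p = 0.570). Both differences were near the median of all genes, at -0.03 and -0.16 relative to it. The upper ends of these intervals, 0.30 for Batf3 and 0.21 for Zbtb46, hold for the fit of the deposited values, in which replicate 1 of Ets1-/- was shifted downwards. With median centring the differences were -0.04 and -0.17. Whether either gene differed from Irf8 in its change was not tested.

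Among the receptors, Siglech and Xcr1 had differences of opposite sign, neither past the test. Siglech, a sialic acid-binding lectin of plasmacytoid cells, had 4.97, 6.15 and 5.65 in Ets1-/-, against 4.98, 4.53 and 4.82 in wild type. Replicates 2 and 3 of Ets1-/- were above every wild-type array, and replicate 1 was level with wild-type replicate 1. The difference was 0.81 ± 0.33 (SE; 95% interval 0.05 to 1.58; adjusted p = 0.350). Xcr1, the chemokine receptor of cDC1, had 3.07, 4.23 and 3.45 in Ets1-/-, against 4.22, 4.61 and 5.37 in wild type. The groups overlapped through Ets1-/- replicate 2 and wild-type replicate 1, which were nearly equal. The Ets1-/- mean of Xcr1, 3.58, lay under the median of all probe sets, and the wild-type mean, 4.73, lay above it. The difference was -1.15 ± 0.40 (SE; 95% interval -2.08 to -0.23; adjusted p = 0.266).

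Flt3 and Cd209a showed no separation between genotypes. Flt3, the receptor tyrosine kinase that drives dendritic-cell development from progenitors, had 3.03, 3.85 and 3.88 in Ets1-/-, against 3.39, 3.17 and 4.10 in wild type. It was the 1 member whose mean over all arrays lay under the median of all probe sets, and its difference was 0.03 ± 0.35 (SE; 95% interval -0.78 to 0.84; adjusted p = 0.973). The C-type lectin Cd209a had 5.83, 6.16 and 5.75 in Ets1-/-, against 5.74, 6.28 and 6.29 in wild type. The ranges overlapped almost wholly, with a difference of -0.19 ± 0.26 (SE; 95% interval -0.78 to 0.41; adjusted p = 0.765). Its dimmer probe set had a difference of -0.47 ± 0.40 (SE; adjusted p = 0.673 over all probe sets) at means of 2.78 in Ets1-/- and 3.26 in wild type.

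Exact two-sided permutation tests over the 6 arrays gave p = 0.1 for Irf8 and Spib, the smallest value that 3 arrays against 3 allow. The same test gave 0.2 for Siglech, Xcr1 and Zbtb46, 0.3 for Batf3, 0.4 for Cd209a and 1.0 for Flt3. No member could pass 0.05 in that test.

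**Figure D2:**
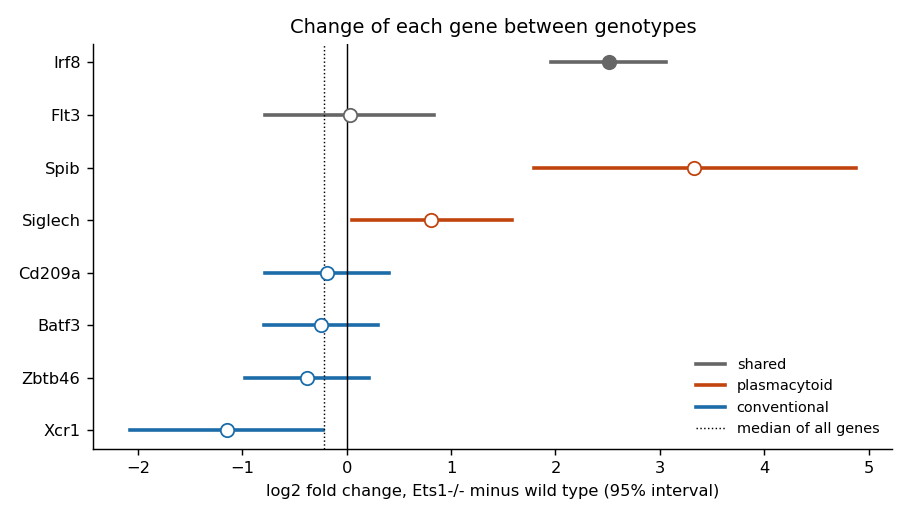
Difference in log2 signal, Ets1-/- minus wild type, with limma's 95% interval for each of the 8 genes; the filled point passed the test over all genes. Irf8, Spib and Siglech have intervals above 0, Xcr1 has one below 0, and the others span 0.

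By lineage, the 4 measured conventional genes (Batf3, Zbtb46, Xcr1 and Cd209a) had differences of -1.15 to -0.19, with a median of -0.31. All 4 were below 0 and 3 were below the median of all genes, in a table where 27.0% of genes were above 0. The 2 plasmacytoid genes had differences of 0.81 and 3.33, with a median of 2.07. The 2 genes shared between lineages stood apart from each other, with 2.51 for Irf8 and 0.03 for Flt3. The median over all 8 members was -0.08, against -0.22 over all genes. Whether the conventional genes differed from the plasmacytoid genes as groups was not tested.

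Setting each array against its own median changed which members overlapped. On that scale the 3 Ets1-/- values lay above all wild-type values for 11.2% of all genes and below them for 9.30%. Siglech then had 1.31, 1.84 and 1.46 above the array median in Ets1-/-, against 0.77, 0.28 and 0.49 in wild type, and no longer overlapped. Its difference became 1.03 with a limma adjusted p of 0.0569. Xcr1 had -0.59, -0.08 and -0.74 in Ets1-/-, against 0.01, 0.36 and 1.04 in wild type. It too no longer overlapped, with a difference of -0.94 and an adjusted p of 0.208. Irf8 stayed apart, at 3.24 to 3.61 in Ets1-/- and 0.65 to 0.82 in wild type. Batf3, Zbtb46, Flt3 and Cd209a kept overlapping, and their differences were -0.04, -0.17, 0.24 and 0.02.

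**Figure D3:**
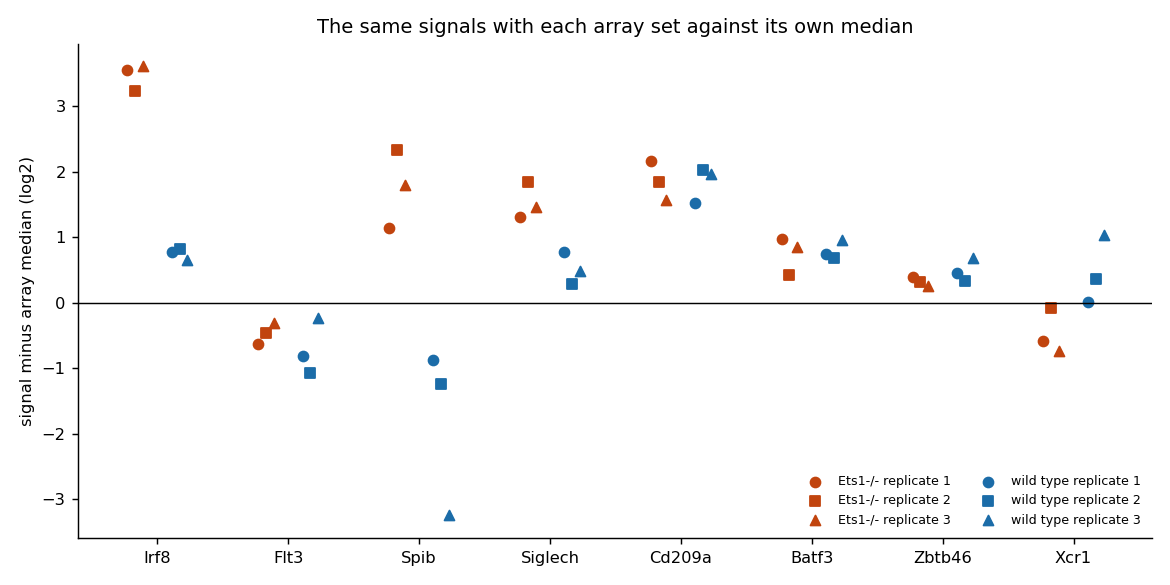
Log2 signal minus the median of the same array for the 8 genes, with Ets1-/- in orange left of wild type in blue and symbols for replicates. Irf8, Spib and Siglech lie higher and Xcr1 lower in all 3 Ets1-/- arrays than in any wild-type array, where 11.2% of all genes are so placed upwards and 9.30% downwards.

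The bases upstream of 4 members are printed because Irf8 and Spib, the members without overlap, are set beside Siglech and Xcr1, whose differences had opposite signs. They are the 250 bases before the annotated start in RefSeq (GRCm38.p6), read 5′ to 3′ on the gene's strand, with capitals for the ETS-type motif GGAAGT or its reverse complement. Irf8 lies at chr8:120736108-120736357, plus strand. Spib lies at chr7:44532072-44532321, minus strand. Siglech lies at chr7:55767934-55768183, plus strand. Xcr1 lies at chr9:123862030-123862279, minus strand.
Irf8: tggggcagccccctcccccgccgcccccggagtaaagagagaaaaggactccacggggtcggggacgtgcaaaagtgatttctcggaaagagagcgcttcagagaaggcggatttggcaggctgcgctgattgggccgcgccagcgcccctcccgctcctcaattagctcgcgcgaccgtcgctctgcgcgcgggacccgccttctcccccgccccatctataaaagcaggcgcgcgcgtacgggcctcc
Spib: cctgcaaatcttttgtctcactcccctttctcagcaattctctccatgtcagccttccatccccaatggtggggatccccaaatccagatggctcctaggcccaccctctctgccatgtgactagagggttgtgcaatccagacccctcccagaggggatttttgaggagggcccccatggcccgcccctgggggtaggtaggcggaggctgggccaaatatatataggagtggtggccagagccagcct
Siglech: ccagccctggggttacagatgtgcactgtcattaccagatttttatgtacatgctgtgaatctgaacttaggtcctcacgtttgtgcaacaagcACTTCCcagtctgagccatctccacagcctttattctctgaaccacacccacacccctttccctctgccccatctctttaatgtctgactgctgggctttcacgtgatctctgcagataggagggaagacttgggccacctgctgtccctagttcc
Xcr1: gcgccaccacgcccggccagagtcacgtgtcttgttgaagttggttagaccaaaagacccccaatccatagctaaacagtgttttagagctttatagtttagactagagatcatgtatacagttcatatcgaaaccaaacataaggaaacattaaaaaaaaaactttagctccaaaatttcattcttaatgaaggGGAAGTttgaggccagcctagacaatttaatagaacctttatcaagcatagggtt

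Windows from 250 bases before to 50 after the start were searched on both strands. RefSeq had 10 such windows for the 9 members, 2 of them for Irf8. GGAAGT occurred in 5 of the 10 windows, those of Batf3, Flt3, Siglech, Cd209a and Xcr1, and in 23.8% of all 32851 windows. In Siglech it began 156 bases before the start, on the opposite strand, and in Xcr1 55 bases before it. Neither Irf8 window nor that of Spib held it. GAGGAAGT, the longer form bound by PU.1 and Spi-B, which contains GGAAGT, occurred in 0 of the 10 and in 3.20% of all windows. The composite GGAANNGAA of ETS and IRF factors occurred in Cd209a and in 8.24% of all windows, where it shares bases with GGAAGT at 1 of its 2 places. The IRF repeat GAAANNGAA occurred in Clec9a (8.56% of all windows), the AP-1 motif TGANTCA in Zbtb46 (7.81%) and the E-box CAGCTG in 0 of the 10 (16.3%). A match is a description of these letters and not a binding site.

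Other genes of the dendritic-cell programme showed calls in both lineages, all of them higher in the fit without a pseudocount. For every list below, the shares over all genes were 1.29% called higher and 0.568% called lower. At an unadjusted limma p under 0.05 they were 4.54% higher and 8.62% lower. With a pseudocount of 16, 484 of 22180 genes were called higher and 423 lower. Of 20 measured plasmacytoid genes, 5 rose and 0 fell, with a median difference of 1.05 against -0.22 over all genes; at an unadjusted limma p under 0.05, 11 were higher and 2 lower. With a pseudocount of 16, 8 were called higher and 1 lower, the surface antigen Ly6d. Klk1, a kallikrein protease found in plasmacytoid cells, had 5.78, 7.52 and 7.90 in Ets1-/-, against 3.66, 3.53 and 3.32 in wild type (difference 3.56 ± 0.52, SE; adjusted p = 0.0149). Replicate 1, the array shifted downwards, was the lowest Ets1-/- array for Klk1, as for Spib and Siglech. It was also the lowest for Irf8, Batf3, Zbtb46, Xcr1 and Flt3, but not for Cd209a. Cox6a2, a subunit of cytochrome c oxidase, rose by 1.92 ± 0.28 (adjusted p = 0.0145), and the inhibitory collagen receptor Lair1 by 2.0 ± 0.30 (adjusted p = 0.0178). Mzb1, an endoplasmic reticulum chaperone that plasma cells also make in quantity, rose by 3.95 ± 0.53 (adjusted p = 0.0109). The fifth was Bst2, an interferon-inducible membrane protein, which rose by 1.54 and is named because it completes the count. The count rested on single arrays: it was 5 without Ets1-/- replicate 1 or wild-type replicate 1, 0 without Ets1-/- replicate 2, 2 without Ets1-/- replicate 3, and 3 and 1 without wild-type replicates 2 and 3. Klk1 lost its call without Ets1-/- replicate 2 or wild-type replicate 3 (adjusted p up to 0.0690), and Mzb1 without Ets1-/- replicate 2 (0.0567). Cox6a2 and Lair1 each lost their calls in 4 of the 6 fits (adjusted p up to 0.0691 and 0.0713), and Bst2 in 5 of 6 (up to 0.0933). With a pseudocount of 16 the differences of Cox6a2 and Lair1 were 1.25 and 1.19, and both were still called.

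Of 15 measured cDC1 genes outside the members, 2 rose and 0 fell, with a median difference of 0.83. Itgae, the integrin chain CD103 that some T cells carry too, had 6.89 ± 0.43 in Ets1-/- and 3.93 ± 0.25 in wild type (SD, n = 3 each; adjusted p = 0.00268). Id2, an inhibitor of E proteins needed for cDC1 and for innate lymphocytes, rose by 1.55 ± 0.24 (SE; adjusted p = 0.0197). The adhesion molecule Cadm1 and the interferon-inducible gene Ifi205 had differences of 1.28 and 1.04 without passing the test (adjusted p = 0.122 and 0.196). Of 13 measured cDC2 genes, 3 rose and 0 fell, with a median of 0.70. They were Sirpa, a receptor of myeloid cells, at 2.97 ± 0.28 (adjusted p = 0.00225), the integrin chain Itgam at 3.01 ± 0.35 (adjusted p = 0.00560) and the transcription factor Irf4 at 2.13 ± 0.32 (adjusted p = 0.0184). Clec12a, a lectin of myeloid cells, had a difference of 2.79 ± 0.59 (adjusted p = 0.0697). Itgae, Sirpa and Itgam kept their calls whichever array was left out, with adjusted p of up to 0.0178, 0.0140 and 0.0357. Id2 was called only without Ets1-/- replicate 1 among those fits (adjusted p up to 0.0869), and Irf4 only without Ets1-/- replicate 1 or wild-type replicate 1 (up to 0.0842). With a pseudocount of 16 the differences of Itgam and Irf4 were 1.89 and 0.94, both called.

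Of 24 measured genes common to dendritic cells, 3 rose and 0 fell, with a median of 0.47. The costimulatory ligand Cd86 rose by 3.05 ± 0.27 (SE; adjusted p = 0.00197), the integrin chain Itgax, CD11c, by 3.67 ± 0.55 (adjusted p = 0.0173), and Spi1 by 3.17 ± 0.41 (adjusted p = 0.00889). Spi1 encodes PU.1, the closest ETS relative of Spi-B that myeloid and B cells share. Of 17 measured genes of FLT3 and GM-CSF signalling, 1 rose and 0 fell, with a median of 0.17; with a pseudocount of 16, 2 were called higher and 1 lower, the ubiquitin ligase Cbl. It was Socs2, a feedback inhibitor of cytokine receptors, at 5.20 ± 0.84 (adjusted p = 0.0246), with means of 4.08 in Ets1-/- and -1.12 in wild type. Csf2ra, the GM-CSF receptor chain, had 1.37 ± 0.30 (adjusted p = 0.0743). Of 10 measured genes of antigen presentation by class II, which dendritic cells, macrophages and B cells all use, 6 rose and 0 fell, with a median of 2.63. H2-Aa had 10.12 ± 0.11 in Ets1-/- and 6.64 ± 0.18 in wild type (SD, n = 3 each; adjusted p = 0.000527). Leaving out any 1 array ended no call of Cd86, Spi1 or H2-Aa. Itgax missed the threshold whichever Ets1-/- array was omitted (adjusted p at most 0.0639), and Socs2 without any of these or wild-type replicate 3 (up to 0.0933). With a pseudocount of 16 the differences of Itgax, Spi1 and Socs2 were 2.28, 1.91 and 1.03, all called.

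**Figure D4:**
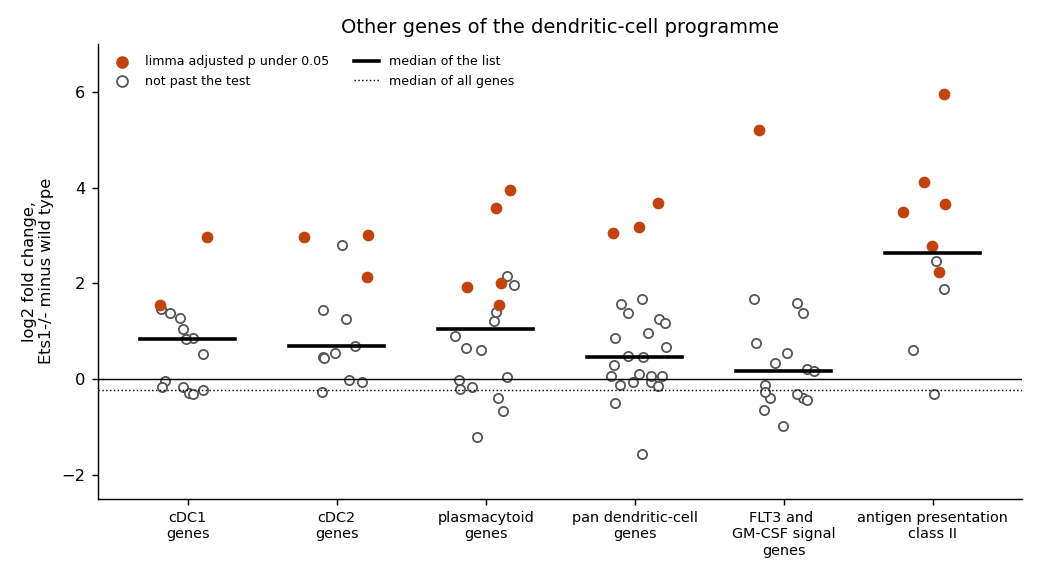
Difference in log2 signal, Ets1-/- minus wild type, for the measured genes of 6 lists of the dendritic-cell programme. Filled points passed the test and bars are list medians. The plasmacytoid gene Ly6c2, with a difference of 8.62 that did not pass the test, lies above the axis and is not drawn. The medians run from 0.17 to 2.63, all above the median of all genes, and every filled point, called without a pseudocount, lies above 0.

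Markers of other cell types moved with these genes, and their part in the result was not tested; in bulk RNA, a change in the number of cells of a type and a change in RNA per cell cannot be told apart. Of 18 measured macrophage and monocyte markers, 10 rose and 0 fell, and their summed linear signal was 3358 to 4540 in Ets1-/- and 710 to 900 in wild type. Csf1r, the receptor that macrophages depend on, rose by 3.31 ± 0.28 (SE; adjusted p = 0.00140). Of 12 measured B-cell markers, 6 rose and 0 fell, with sums of 554 to 1255 in Ets1-/- and 130 to 194 in wild type. With median centring 10 of the 12 were called higher. Cd79a, a chain of the B-cell receptor, rose by 4.20 ± 0.42 (adjusted p = 0.00293). With any 1 array left out, 8 to 10 macrophage and 4 to 6 B-cell markers were called, and both named genes kept their calls; with a pseudocount of 16 the difference of Cd79a was 2.51. Of 9 plasma-cell markers, 3 rose and 0 fell (1 called without Ets1-/- replicate 2), with sums of 810 to 2340 in Ets1-/- and 259 to 282 in wild type. Of these 3, Mzb1 and Irf4 were already counted above, among the plasmacytoid and cDC2 genes, and the third was Jchain. Of 11 markers of early progenitors, which share Flt3 with dendritic cells, 2 rose and 0 fell, with sums of 274 to 467 in Ets1-/- and 101 to 128 in wild type; 4 were called higher with median centring and 4 with a pseudocount of 16. The 2 that rose were Mef2c and Spi1, and Spi1 was already counted above among the genes common to dendritic cells.

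Many of these markers were dim, that is, their group mean was under the median of all probe sets. Of the macrophage markers 5 were dim in Ets1-/- and 8 in wild type, and of the B-cell markers 2 in Ets1-/- and 9 in wild type. Of the plasma-cell markers 2 were dim in Ets1-/- and 6 in wild type, and of the progenitor markers 6 in Ets1-/- and 10 in wild type. Of 9 natural killer markers, 1 rose and 0 fell (2 higher with median centring and 3 with a pseudocount of 16), with sums of 590 to 1041 in Ets1-/- and 229 to 372 in wild type. No marker of neutrophils (12 measured), thymic epithelium (13) or endothelium (12) was called; at an unadjusted limma p under 0.05, 0 neutrophil markers were higher and 1 lower, 1 epithelial marker was higher and 1 lower, and 0 endothelial markers were higher and 4 lower. Of all genes, 4.54% were higher and 8.62% lower at that threshold. The higher epithelial marker, Ly75, also belongs to the cDC1 list. With median centring 1 endothelial marker, the adhesion molecule Pecam1, was called lower, as it was with a pseudocount of 16. Most neutrophil markers were dim, 11 of 12 in Ets1-/- and 9 in wild type, as were 11 of 12 endothelial markers in Ets1-/- and 10 in wild type. Of the epithelial markers 5 of 13 were dim in Ets1-/- and 6 in wild type. The neutrophil sums were 97 to 131 in Ets1-/- and 136 to 167 in wild type. Those of thymic epithelium were 185 to 394 in Ets1-/- and 255 to 279 in wild type, and those of endothelium 125 to 203 in Ets1-/- and 286 to 381 in wild type. Of 15 measured genes listed for double-positive thymocytes, 1 rose (Ptcra, the pre-T-cell receptor chain, by 1.50) and 1 fell (Tdrd5, by 2.55). Their sums were 22763 to 23853 in Ets1-/- and 23921 to 24421 in wild type. How closely Ptcra marks this stage was not tested. Ptcra kept its call only without Ets1-/- replicate 1 (adjusted p up to 0.116), while Tdrd5 kept it whichever array was left out.

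The candidates were 2318 genes with a range of at least 1 and a mean over the 6 arrays above 5.73, the 75th percentile. Among them, the genes whose pattern over the 6 arrays was most like that of a member were sought. For Irf8 they were Csf1r (Pearson r = 0.998), the macrophage elastase Mmp12 (0.996) and Spg21 (0.995), with differences of 3.31, 5.92 and 2.16. For Spib they were Zdhhc13, Chchd3 and Tspyl4, with r of 0.995, 0.990 and 0.985 and differences of 1.04, 0.90 and 0.82. For Siglech they were Bcl7a, Slc25a51 and Slc30a4, with r of 0.974, 0.972 and 0.962 and differences of 0.60, 0.44 and 0.88. Xcr1 was most like Fam169b, Amer1 and Zfp597, with r of 0.990, 0.970 and 0.969. For Zbtb46 they were Wdr37, Crot and Brcc3 (r of 0.983 to 0.992), for Batf3 Ubac2, Glce and Flot1 (0.962 to 0.987), and for Cd209a Fam210a, Tob1 and Vmn1r127 (0.851 to 0.902). The points share the genotype step and the shift of 1 array, so these r values are descriptions without a test. Csf1r and Mmp12, with wild-type means of 4.55 and 3.58, were candidates only through their Ets1-/- values.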

How the data were processed

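Affymetrix arrays measured 6 RNA samples, and the authors deposited log2 signals for 41345 probe sets, running from -15.86 to 16.36 with 1.63% below 0. That scale follows from the range of the values. The submitters' processing notes name affy as the tool; its version, the background correction and any normalization between arrays are not stated. The annotation named 1 gene for 23521 probe sets and several for 1814, and 16010 were unnamed here. Gene identifiers of 23328 probe sets matched RefSeq (GRCm38.p6), and 0 symbols needed an update.

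The genotypes were compared by limma 3.58.1 under R 4.3.3 (functions lmFit, eBayes; two-sided, no covariate, no filter on dim probe sets), with Benjamini-Hochberg adjustment over 22180 genes at 0.05; SE is limma's. The fit was tested on simulated data without a shift of any array, so that test does not cover the shift of Ets1-/- replicate 1. Members, gene lists and motifs were chosen with earlier results of these data known. The text names all members, at most 4 genes of each other list by smallest p, 5 check genes, Bst2, Ly6d, Cbl and Pecam1 (named after their values were seen, to complete counts), and the 3 genes most like each of the 7 members above the median of all probe sets, by Pearson r among genes above the 75th percentile. Ly6c2 is named because it lies outside a plot. Linear signal is 2 to the power of the log2 value. Alternatives changed the probe set summary, filters, normalization, variance prior, array weights, pseudocount and pairing, and left out each array in turn. Tables used Python 3.11.15 with pandas 2.3.3 and numpy 2.4.6, and plots matplotlib 3.10.9. The number of arrays limits the precision of every value.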

Additional observations from a re-analysis of the deposited data

How the results depend on the processing

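Irf8 was called higher, and no member was called lower, under every setting run (of the lower direction, 1 member had an unadjusted limma p under 0.05 in the settings of the report). The number of members called higher was 1, and it was 2 (Irf8 and Spib) among genes above the median of all probe sets, with quantile normalization, median centring, array weights, a robust prior with an intensity trend, a pseudocount of 16, and that pseudocount with median centring, a setting chosen after seeing the data. With cyclic loess it was 3, Siglech being the third (1.05, adjusted p = 0.0476). More genes were called higher over the whole series in these settings too. They numbered 347 of 11631 above the median and 484 to 756 of 22180 in the others (541 with cyclic loess), against 287 in the report. The number of members called higher was 1 to 1 when any 1 array was left out, where Spib had adjusted p of 0.0571 to 0.174. Over all alternatives the difference of Irf8 ran from 2.05 to 2.72, of Spib from 1.71 to 3.83, of Siglech from 0.53 to 1.12, of Xcr1 from -1.47 to -0.50, of Batf3 from -0.36 to -0.01 and of Zbtb46 from -0.51 to -0.12. The sign turned for Cd209a with median centring (0.02) and cyclic loess (0.03), and for Flt3 without Ets1-/- replicate 2 (-0.10) or 3 (-0.11) or wild-type replicate 1 (-0.05) or 2 (-0.16), within a range of -0.16 to 0.31 over the arrays left out; the cause was not tested. Over all genes, 145 to 756 were called higher (287 with the settings of the report) and 38 to 554 lower (126). With the replicate block the members called higher numbered 1, and Irf8 had 2.51 with an adjusted p of 0.0112. Same-numbered arrays did not deviate together (r of -0.07, -0.01 and -0.05 over genes). This check uses deviations from means of 3 arrays, so it cannot settle whether such arrays share a litter. The block moved the lower calls over all genes to 62. Without Ets1-/- replicate 1, the list counts were the same for plasmacytoid, cDC1 and cDC2 genes (5, 2 and 3 higher), and with median centring they were 7, 5 and 5. With a pseudocount of 16 they were 8, 2 and 5 higher, with 1 plasmacytoid gene lower, and 5 genes common to dendritic cells were higher. With median centring the FLT3 and GM-CSF genes called were 2. Only 2 members passed the filter at the 75th percentile, and Irf8 did so only through its Ets1-/- values. Flt3 did not pass the filter at the median, and Spib passed it only through its Ets1-/- values. Xcr1 passed it only through its wild-type values, with means of 4.73 in wild type and 3.58 in Ets1-/-. The wild-type values of Spib were under the median of all probe sets.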
